A study of Mus musculus with 6 samples.

Results

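Desmosomes are the cell-to-cell junctions that hold keratinocytes together. Transmembrane cadherins of the desmoglein and desmocollin families bridge neighbouring cells, and plakoglobin, the plakophilins and desmoplakin form a plaque that ties them to the keratin filaments. In the epidermis the isoforms are layered: desmoglein 3 and desmocollin 3 are known mainly from the lower layers, and desmoglein 1 and desmocollin 1 from the upper layers. Loss of desmosomal adhesion is known from pemphigus, in which antibodies bind desmogleins.

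The genes described here are Dsg1a, Dsg1b, Dsg2 and Dsg3 (desmogleins), Dsc1, Dsc2 and Dsc3 (desmocollins), and Dsp, Pkp1 and Jup, which encode desmoplakin, plakophilin 1 and plakoglobin. They were taken by symbol as desmosome components, a rule that uses no measured value, but with earlier results of these data known. All 10 were found among the 45513 identifiers of the count table and passed the filter on low counts, as did 15513 genes in all. RNA came from keratinocytes of the skin of 3 knockout and 3 control mice on a C57BL/6 background, named knockout 1 to 3 and control 1 to 3 after the sample titles. Knockout mice were homozygous for a Lama3 allele with loxP sites around exons 50 to 53 and carried K14-CreERT, a tamoxifen-dependent Cre made in keratin 14-expressing basal keratinocytes, activated with chow holding 400 mg of tamoxifen citrate per kg. Controls were Lama3 wt/flox with the same Cre, per the series' text, while their genotype label reads wild type; whether they ate the same chow, the time on it, and age were not stated in the sources used here. Lama3 encodes the alpha chain of laminin 332, which fastens basal keratinocytes to the basement membrane.

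Libraries held 20126395 to 28473479 counts, and single members between 386 and 149557 counts in a library. Lama3, the targeted gene, held 132 ± 15.5 CPM in controls and 91.8 ± 10.9 CPM in knockouts (SD, n = 3 each), with every knockout below every control; CPM is the count per 1000000 counts after TMM scaling. It fell by 0.53 on the log2 scale (SE 0.14, edgeR's adjusted p = 0.0215), a call lost without control 1 (0.0620), control 2 (0.0584) or knockout 1 (0.0551). Its whole-gene count includes exons outside the deletion, so this is a partial check of the labels. At edgeR's adjusted p under 0.05, 17.4% of all tested genes rose and 18.8% fell. Of 12 T cell markers 10 fell and 1 rose, and of 8 tested melanocyte markers 6 fell and none rose. Of 8 fibroblast markers 2 fell and none rose, and their sum was 1199 to 1660 CPM in controls and 568 to 1163 CPM in knockouts, every knockout below every control. Of 12 Langerhans cell and macrophage markers 3 rose and 1 fell, with sums of 737 to 1588 CPM and 775 to 998 CPM. Cd207 fell (-1.68 on the log2 scale, SE 0.49), though its groups overlapped. C1qa (2.06, SE 0.36) and C1qb (1.66, SE 0.38) rose from control means of 1.19 and 0.565 CPM. For the fibroblast list and this list the counts called lay near the shares over all tested genes. The part of all these cell types in the results below was not tested. Through the controls alone, 2 melanocyte markers (1 of which fell) and 1 fibroblast marker (which fell) passed the filter on low counts. Through the knockouts alone, 1 Langerhans cell or macrophage marker passed it. The direction of these markers was partly set by that filter. The 8 endothelial markers summed to 1.68 to 4.91 CPM over all libraries, while Krt5 and Krt14, keratins that define basal keratinocytes, held 3707 to 9664 CPM. By Xist and Ddx3y counts, control 1, knockout 1 and knockout 2 were female and the other 3 libraries male.

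Of the 10 genes, 6 rose in the knockouts (Dsg1b, Dsg3, Dsc1, Dsp, Pkp1 and Jup), 1 fell (Dsc2) and 3 did not pass the test (Dsg1a, Dsg2 and Dsc3). Rose and fell are used where edgeR's quasi-likelihood adjusted p was under 0.05; the Benjamini-Hochberg adjustment ran over the whole table of tested genes, for every adjusted p below unless another tool is named. Over all tested genes 17.4% rose and 18.8% fell. The median log2 fold change, knockout over control, was 0.79 over the 10 genes and -0.02 over all genes tested. For 6 of the 10 every knockout library lay above every control, against 25.2% of all tested genes, and for 1 (Dsc2) every knockout lay below, against 26.5%. In bulk RNA, more cells of a type and more RNA per cell cannot be told apart. With upper-quartile in place of TMM scaling the median of all genes moved by -0.15 on the log2 scale and 30.6% of all calls were higher, against 48.0%; the same count of members rose (6) and fell (1) under it.

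**Figure D1:**
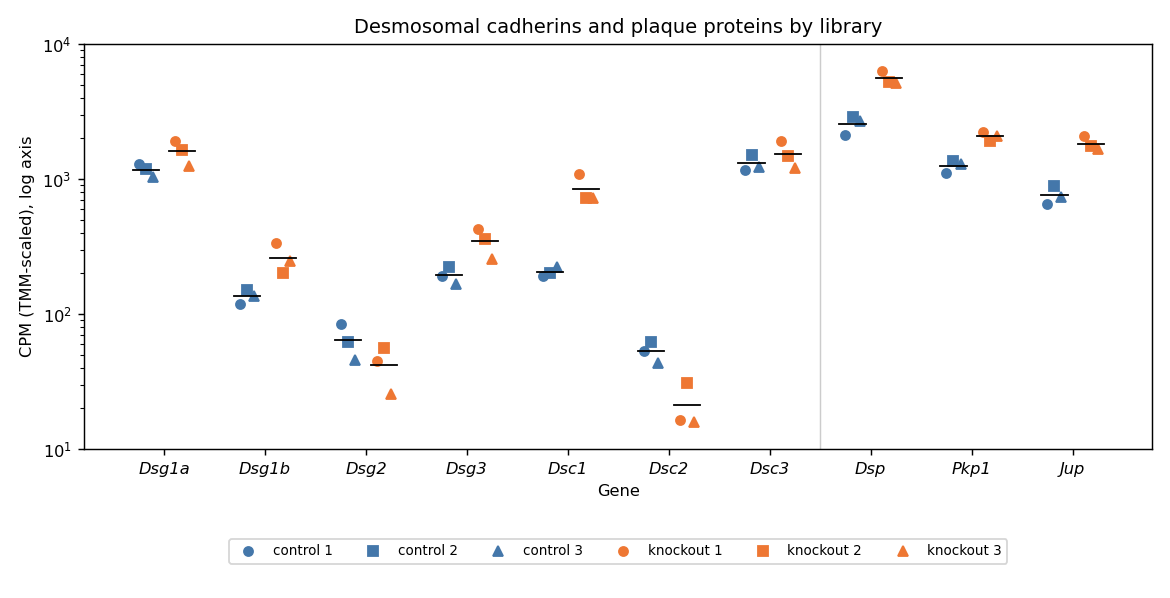
CPM on a log axis for the 10 genes in each library, with controls in blue, knockouts in orange, a marker shape for each replicate number and a black line at each group's mean of 3 libraries; the grey line parts cadherins from plaque proteins. The knockout points of Dsc1, at 722 to 1096 CPM, stand clear of the controls at 189.9 to 225 CPM, and those of Dsc2 lie below its controls.

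The desmocollins moved apart. Dsc1 (ENSMUSG00000044322), the desmocollin of the upper epidermis, was measured at 189.9, 201 and 225 CPM in controls 1, 2 and 3 and at 1096, 722 and 725 CPM in knockouts 1, 2 and 3. All knockouts lay far above the highest control. The mean rose from 205 ± 17.8 to 848 ± 215 CPM, a log2 fold change of 2.05 (SE 0.21, edgeR's adjusted p = 0.00130), and Dsc1 showed the largest rise of the 10.

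Dsc2 (ENSMUSG00000024331), the desmocollin found widely in epithelia and in heart muscle, was measured at 53.0, 62.1 and 43.4 CPM in the controls and 16.3, 31.1 and 15.8 CPM in the knockouts. The groups did not overlap, and knockout 2 was the highest of the knockouts. The mean fell from 52.8 ± 9.37 to 21.0 ± 8.68 CPM, a log2 fold change of -1.33 (SE 0.28, edgeR's adjusted p = 0.0105). Dsc2 was the only one of the 10 genes that fell.

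Dsc3 (ENSMUSG00000059898), the desmocollin of the lower epidermis, was measured at 1176, 1516 and 1236 CPM in the controls and 1927, 1487 and 1208 CPM in the knockouts. The groups overlapped, with knockouts 2 and 3 inside the range of the controls and knockout 1 above it. The log2 fold change was 0.23 (SE 0.23, edgeR's adjusted p = 0.447).

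Because the 3 desmocollins differ in exon length, their shares were compared per kilobase of annotated exon. Dsc3 made up 82.6 ± 1.68% of desmocollin CPM per kb in the controls and 62.4 ± 2.29% in the knockouts. The Dsc1 share was 14.2, 12.0 and 15.8% in the controls and 37.6, 33.8 and 38.8% in the knockouts, and that of Dsc2 was 3.42 ± 0.447% and 0.910 ± 0.435%. Dsc3 thus stayed the most abundant desmocollin mRNA in all 6 libraries, and no knockout library overlapped the controls in any of the 3 shares (exact permutation p = 0.1 for each, 2-sided, the smallest that 3 against 3 can give). Summed over the 3 genes, the desmocollin level was 293 ± 34.9 CPM per kb in the controls and 457 ± 107 CPM per kb in the knockouts, with every knockout above every control (exact permutation p = 0.1).

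**Figure D2:**
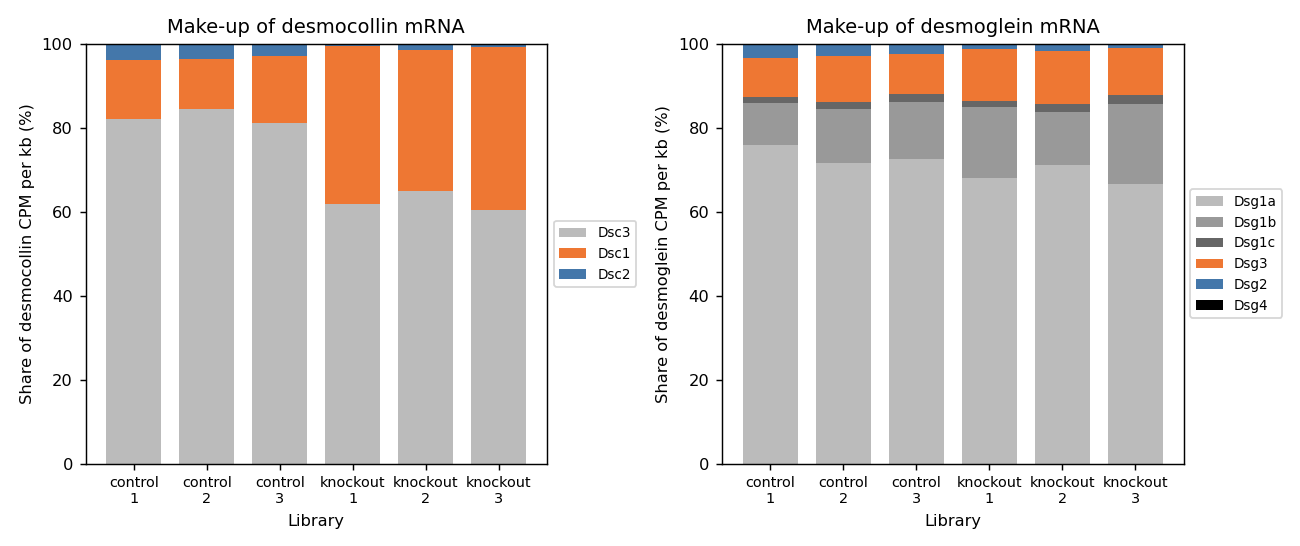
Stacked bars of the share of each gene in the desmocollin (left) and desmoglein (right) CPM per kb of exon, in percent, for each library. The orange Dsc1 segment covers 12.0 to 15.8% in the controls and 33.8 to 38.8% in the knockouts, while the 3 Dsg1 copies in greys keep 85.6 to 88.2% of the desmogleins in every library.

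Desmoglein 1, the antigen of pemphigus foliaceus and the desmoglein of the upper epidermis, is encoded in the mouse by the neighbouring copies Dsg1a, Dsg1b and Dsg1c. Of the 100-base windows (the read length) of the longest annotated transcript, 24.6% for Dsg1a, 32.8% for Dsg1b and 13.9% for Dsg1c occur without a mismatch in another of the 3 copies; no other member shared such a window with any gene. How the counting treated such reads is not given in the sources used here, so the split between copies is uncertain and their sum was tested as well.

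Dsg1a (ENSMUSG00000069441) held 82.0 to 90.3% of the summed CPM of the copies. It was measured at 1293, 1189 and 1038 CPM in the controls and 1928, 1638 and 1238 CPM in the knockouts. Knockout 3 lay inside the range of the controls and the other knockouts lay above it. The log2 fold change was 0.45 (SE 0.22, edgeR's adjusted p = 0.143), and DESeq2 called it (adjusted p = 0.0471).

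Dsg1b (ENSMUSG00000061928) was measured at 119, 151 and 137 CPM in the controls and 334, 202 and 245 CPM in the knockouts, with no overlap. It rose by a log2 fold change of 0.94 (SE 0.20, edgeR's adjusted p = 0.0100). Summed over the 3 copies, the level averaged 1329 ± 122 CPM among controls and 1891 ± 391 CPM among knockouts, and every knockout sum lay above every control sum. The sum had a log2 fold change of 0.51 (SE 0.22), which edgeR did not call (adjusted p = 0.0986) and DESeq2 did (adjusted p = 0.0163).

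Dsg3 (ENSMUSG00000056632), the antigen of pemphigus vulgaris, was measured at 190.3, 224 and 166 CPM in the controls and 430.0, 358 and 257 CPM in the knockouts. The groups did not overlap, and knockout 3 was the nearest to the controls. The mean rose from 193 ± 28.8 to 348 ± 86.8 CPM, a log2 fold change of 0.85 (SE 0.21, edgeR's adjusted p = 0.0177). The call was lost without control 1 (adjusted p = 0.0509), control 3 (0.0610) or knockout 1 (0.0582).

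Dsg2 (ENSMUSG00000044393), the desmoglein of simple epithelia and heart, was measured at 84.6, 61.6 and 45.9 CPM in the controls and 44.8, 56.0 and 25.7 CPM in the knockouts. The groups overlapped, since knockout 2 lay above control 3. The log2 fold change was -0.60 (SE 0.31, edgeR's adjusted p = 0.160). With sex as a covariate it was -0.90, and edgeR called it lower (adjusted p = 0.00969).

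Per kilobase, the 3 Dsg1 copies made up 87.3 ± 0.972% of desmoglein mRNA in the controls and 86.6 ± 1.07% in the knockouts, and the groups overlapped (exact permutation p = 0.5). The share of Dsg1a alone was lower in every knockout than in any control (73.3 ± 2.23% and 68.7 ± 2.31%, exact permutation p = 0.1). That gap was narrow, with 71.6% in control 2 and 71.3% in knockout 2, and depends on the uncertain split of reads between the copies. The Dsg3 share was 9.84 ± 0.993% and 12.1 ± 0.735%, and the Dsg2 share 2.72 ± 0.621% and 1.24 ± 0.384%; for both the groups did not overlap (exact permutation p = 0.1 each). The desmoglein level summed to 281 ± 25.9 CPM per kb in the controls and 409 ± 85.9 CPM per kb in the knockouts. All desmosomal cadherins together held 574 ± 46.2 and 867 ± 192 CPM per kb, with every knockout above every control (exact permutation p = 0.1).

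Among the 10 genes, those of the plaque (Dsp, Jup and Pkp1) all rose. Dsp (ENSMUSG00000054889) encodes desmoplakin, which links the plaque to keratin filaments, and lies on the plus strand of chromosome 13 of GRCm38, from 38151294 to 38198577. It was measured at 2101, 2855 and 2679 CPM in the controls and 6324, 5215 and 5169 CPM in the knockouts, the highest CPM of the 10 genes in all libraries. Every knockout lay far above the controls, and the mean rose from 2545 ± 395 to 5569 ± 654 CPM (1.13 on the log2 scale, SE 0.23, edgeR's adjusted p = 0.00941).

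Jup (ENSMUSG00000001552), on the minus strand of chromosome 11 from 100368958 to 100397763, encodes plakoglobin, an armadillo protein that binds the tails of the desmosomal cadherins and also takes part in adherens junctions. It was measured at 651, 888 and 736 CPM in the controls and 2073, 1748 and 1671 CPM in the knockouts. The lowest knockout was well above the highest control. The mean rose from 758 ± 120.0 to 1831 ± 214 CPM (1.27 on the log2 scale, SE 0.20, edgeR's adjusted p = 0.00420).

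Dsp and Jup showed similar rises from separate chromosomes, and their promoters were found in the RefSeq table for GRCm38.p6, which held 2 of the 10 genes. The 250 bases before each RefSeq start are printed 5′ to 3′ on the gene's strand to let the upstream regions of these 2 genes be compared, Dsp from chr13:38151044-38151293 and Jup from chr11:100397791-100398040. Capitals mark GC boxes (GGGCGG or its reverse complement CCGCCC) and CCAAT boxes (CCAAT or ATTGG), searched on both strands; no 2 marked matches overlapped.
Dsp: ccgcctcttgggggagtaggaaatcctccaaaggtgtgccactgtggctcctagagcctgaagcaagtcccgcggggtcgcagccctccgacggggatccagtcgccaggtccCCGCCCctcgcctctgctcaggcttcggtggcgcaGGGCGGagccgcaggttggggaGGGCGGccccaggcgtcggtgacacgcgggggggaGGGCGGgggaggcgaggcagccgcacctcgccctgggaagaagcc
Jup: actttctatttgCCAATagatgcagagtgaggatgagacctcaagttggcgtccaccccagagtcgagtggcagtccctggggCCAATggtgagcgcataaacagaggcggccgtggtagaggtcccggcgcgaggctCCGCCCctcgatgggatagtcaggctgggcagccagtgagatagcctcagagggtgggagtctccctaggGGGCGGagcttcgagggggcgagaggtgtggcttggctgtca

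The Dsp window held 4 GC boxes and no CCAAT box, with 72.4% G or C. The Jup window held 2 GC boxes and 2 CCAAT boxes, with 62.0% G or C. A GC box occurs in 32.7% and a CCAAT box in 33.8% of all 32851 RefSeq promoter windows of the same length. On either strand, neither window held the AP-1 letters TGANTCA, present in 6.75% of all windows, or the grainyhead-like letters AACCNGTT, present in 1.79%.

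Pkp1 (ENSMUSG00000026413), on the minus strand of chromosome 1 from 135871395 to 135919207, encodes plakophilin 1, the plakophilin of the upper epidermis, whose inherited loss causes skin fragility. It was measured at 1115, 1357 and 1284 CPM in the controls and 2245, 1916 and 2068 CPM in the knockouts. The groups did not overlap and the knockouts lay close together. The mean rose from 1252 ± 124 to 2076 ± 165 CPM (0.73 on the log2 scale, SE 0.19, edgeR's adjusted p = 0.0201). The call was lost without control 1 (adjusted p = 0.0533), control 3 (0.0669) or knockout 1 (0.0694), as for Dsg3.

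Among the 10 genes, 5 of the 7 called (Dsg1b, Dsc1, Dsc2, Dsp and Jup) kept their call in all 14 alternative fits. Knockout 1 was the highest knockout library for 8 of the 10 genes, all but Dsg2 and Dsc2, where knockout 2 was highest. Knockout 3 was the lowest knockout for 7 of the 10. Dsg2 overlaps the antisense transcript Gm16090 and Dsp overlaps Gm10129 on the other strand, and these held at most 7 counts in a library. Since the strand setting of the counting is not given, those counts cannot show whether reads of Dsg2 or Dsp were lost in the overlap.

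Levels of different genes were compared per kilobase of exon, by the union of annotated exons. The place of Jup depends on that length: its union is 6436 bases and its longest transcript 3205 bases. The order by longest transcript was not computed, so the place of Jup is uncertain. In the controls the order was Dsp (263 ± 40.9 CPM per kb), Pkp1 (249 ± 24.7), Dsc3 (242 ± 33.6), Dsg1a (206 ± 22.6), Jup (118 ± 18.6), Dsc1 (40.6 ± 3.53), Dsg1b (34.1 ± 4.03), Dsg3 (27.7 ± 4.13), Dsc2 (10.01 ± 1.78) and Dsg2 (7.74 ± 2.35). Dsp, Pkp1 and Dsc3 differed by less than their SDs, Dsg1a lay below Dsc3 by little more than the SD of Dsc3, and Dsc2 and Dsg2 overlapped. In the knockouts Dsp held 577 ± 67.7 CPM per kb and Pkp1 413 ± 32.8, followed by Dsc3 (285 ± 67.1), Jup (284 ± 33.2) and Dsg1a (282 ± 60.9), which did not differ beyond their spread. Dsc1 came next at 168 ± 42.6 CPM per kb, ahead of Dsg1b (65.7 ± 17.0) and Dsg3 (49.9 ± 12.4), which differed by less than the SD of Dsg1b. Dsg2 (5.10 ± 1.85) and Dsc2 (3.99 ± 1.65) stayed lowest and differed by less than their SDs.

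To ask whether these genes changed by different amounts, 6 ratios of counts were formed within each library, which do not depend on scaling, and compared with a 2-sided exact permutation test. The ratio of Dsc1 to Dsc3 was 0.162, 0.132 and 0.182 in the controls and 0.569, 0.486 and 0.600 in the knockouts, a difference of 1.81 on the log2 scale. Dsc2 to Dsc3 differed by -1.60, from a ratio of 0.0404 ± 0.00502 to 0.0141 ± 0.00629. The Dsg1 copies to Dsg3 differed by -0.34, from 6.93 ± 0.756 to 5.48 ± 0.351. With Dsg1b alone in place of the 3 copies the latter difference was 0.09.

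The ratio of Dsp to Jup was 3.23, 3.22 and 3.64 in the controls and 3.05, 2.98 and 3.09 in the knockouts, a small difference of -0.14 on the log2 scale. In all 4 of these ratios the groups did not overlap (exact permutation p = 0.1 each, the smallest possible, adjusted over the 6 ratios 0.15). Pkp1 to Pkp3 (3.50 ± 0.342 and 3.45 ± 0.0897) and all desmogleins to all desmocollins (1.02 ± 0.157 and 0.950 ± 0.0605) overlapped, with log2 differences of -0.02 and -0.10 (exact permutation p = 0.9 and 0.5, adjusted 0.9 and 0.6). For these 2 ratios the difference was smaller than the SD of the controls.

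**Figure D3:**
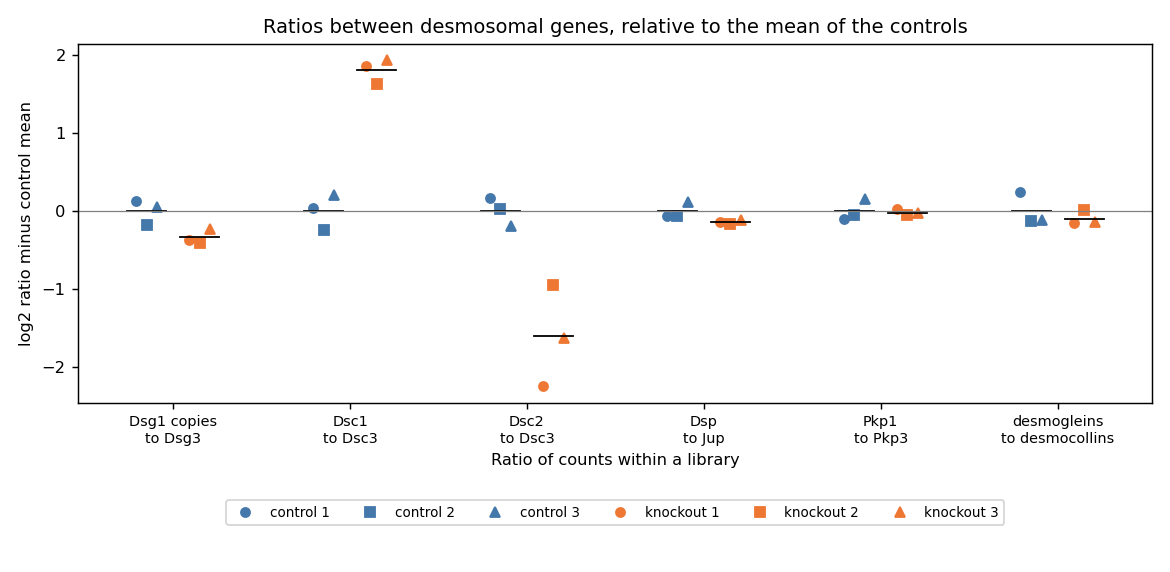
Log2 ratio of counts within each library, minus the mean of the 3 controls, for 6 pairs of desmosomal genes or gene sums; points are libraries, black lines group means. The knockouts of Dsc1 to Dsc3 lie near 1.81 and those of Dsc2 to Dsc3 around -1.60, where knockout 2 is nearest to the controls, while the means of the other 4 ratios lie between -0.34 and -0.02.

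Other parts of the desmosome and of the cornified cell's junction were followed in a list of 10 genes, of which 6 rose, 1 fell (Dsg4, which reached the low-count limit in the controls only) and 3 did not pass, with a median log2 fold change of 0.64. Dsg1c rose from 19.9 ± 0.126 to 29.0 ± 1.45 CPM, and Pkp3, plakophilin 3, from 359 ± 38.6 to 601 ± 32.1 CPM (0.75 on the log2 scale, SE 0.15). The plakins Evpl, envoplakin, and Ppl, periplakin, which join desmosomes to the cornified envelope, rose by 1.01 (SE 0.16) and 0.88 (SE 0.16). Kazn, kazrin, a partner of periplakin, rose by 0.90 (SE 0.11).

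Cdsn encodes corneodesmosin, the secreted protein that turns desmosomes into the corneodesmosomes of the stratum corneum. It was measured at 183, 129 and 78.1 CPM in the controls and 535, 683 and 278 CPM in the knockouts, and rose by a log2 fold change of 1.94 (SE 0.40, edgeR's adjusted p = 0.00969). Perp, a tetraspan desmosomal protein, held 3259 ± 771 and 4458 ± 240 CPM (adjusted p = 0.171), and Pkp4 and Pkp2 had log2 fold changes of 0.05 (SE 0.15) and -0.27 (SE 0.26). Every knockout level of Perp was above every control; edgeR did not call it and DESeq2 did (0.48 on the log2 scale, adjusted p = 0.0378).

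Dsg4, the desmoglein of the hair shaft, was called lower. It held 10, 48 and 32 counts in the controls and 7, 3 and 0 counts in the knockouts (-3.32 on the log2 scale, SE 0.90, edgeR's adjusted p = 0.0250). Since Dsg4 passed the filter on low counts through the controls alone, its direction among tested genes was partly set by that filter; without the filter the value was -3.28 (edgeR's adjusted p = 0.0303). The call was lost without control 2 (adjusted p = 0.0662), control 3 (0.0590) or knockout 2 (0.0789). Of 18 tested hair shaft and sheath markers 16 were called lower and none higher, but 12 of the 16 passed the filter through the controls alone, so that count is partly set by the filter. Of the 6 others 4 fell, and with no filter 16 of 19 fitted were called lower. The 19 genes of this list in the table summed to 120.4 to 404 CPM in the controls and 39.7 to 43.1 CPM in the knockouts, with Krt81 at 0 counts in every knockout. Of 12 sebaceous markers 7 fell and 1 rose, with summed levels of 1424 to 1909 CPM and 902 to 1564 CPM. The part of these cells in the lower Dsc2 and Dsg4 was not tested.

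**Figure D4:**
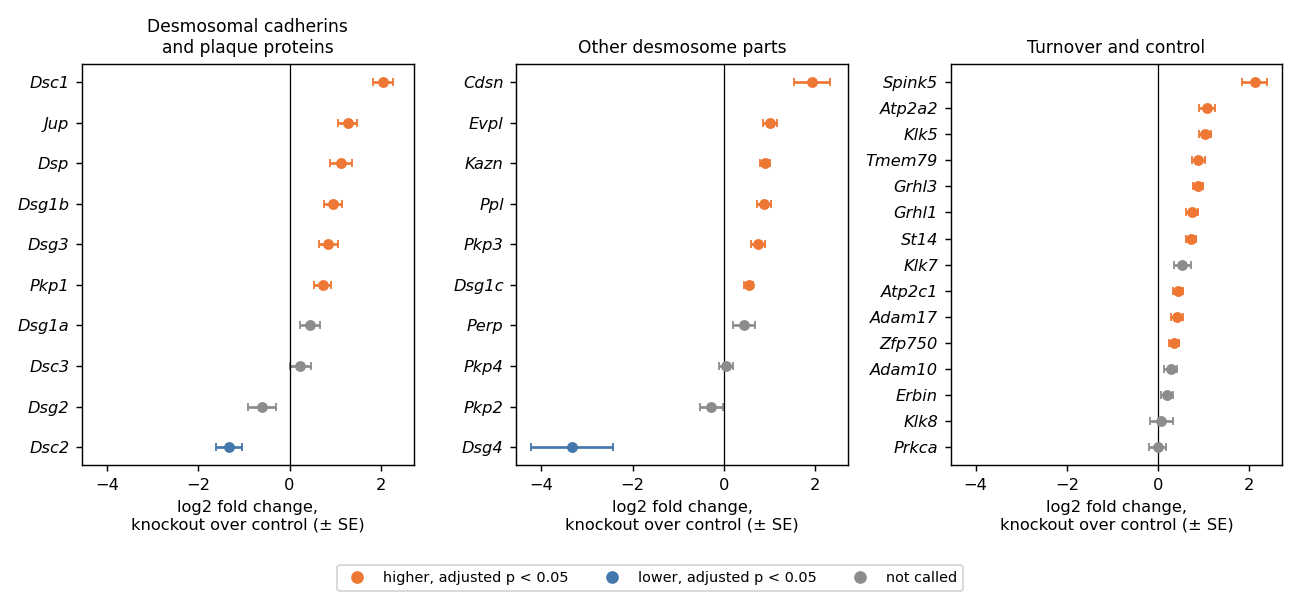
Log2 fold change of knockout over control with its SE, from edgeR on 3 against 3 libraries, for the 10 desmosomal genes (left), other desmosome parts (middle) and genes of desmosome turnover and control (right); orange rose, blue fell and grey did not pass an adjusted p of 0.05. Dsc1 (2.05), Cdsn (1.94) and Spink5 (2.12) lead their panels, and Dsc2 and Dsg4 are the genes called lower.

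Genes that act on desmosomes were followed in a list of 16, of which 15 were tested: 10 rose, none fell and 5 did not pass, with a median of 0.53. Spink5, the inhibitor of the proteases that cut corneodesmosomes, rose from 262 ± 58.2 to 1138 ± 332 CPM (2.12 on the log2 scale, SE 0.28, edgeR's adjusted p = 0.00234). Klk5, one of those proteases, rose from 70.9 ± 7.25 to 144 ± 15.9 CPM (1.03, SE 0.13). Of the other Klk genes in the list, Klk7 (0.53, SE 0.18, edgeR's adjusted p = 0.0527) and Klk8 (0.07, SE 0.25) did not pass. Klk14 was not tested. Grhl3, a grainyhead-like transcription factor of epidermal differentiation, rose from 85.9 ± 8.38 to 157 ± 6.06 CPM (0.87, SE 0.11).

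Adherens junctions, which share plakoglobin with desmosomes, and hemidesmosomes, which bind laminin 332, gave a measure of other adhesive structures. Of 13 adherens junction genes 7 rose and none fell (median log2 fold change 0.66). Lmo7 (1.35, SE 0.15), Nectin4 (1.00, SE 0.12) and Nectin1 (0.75, SE 0.17) were among those that rose. Among the 6 that did not pass were Cdh1 (0.42, SE 0.21) and Ctnnb1 (0.18, SE 0.18). Of 6 hemidesmosome genes, 3 of which are also in the basal list, 3 rose and 1 fell (median 0.68), with Dst at 0.91 (SE 0.17), Plec at 0.71 (SE 0.16) and Cd151 at -0.66 (SE 0.13). Differences between these lists and the 10 desmosomal genes were not tested.

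Among 15 tested suprabasal keratinocyte markers (Grhl3 included) 12 rose and none fell, with a median log2 fold change of 1.15. The summed levels of the list were 16574 to 18730.4 CPM in the controls and 33788 to 51237 CPM in the knockouts. Likeness of these markers to Dsc1 over the libraries was not tested. Of 11 basal markers 2 rose and 2 fell, with a median of 0.15 and summed levels of 17309 to 23773 CPM and 16270.3 to 22171 CPM. Of 11 tested wound and stress markers 10 rose, with summed levels of 2065 to 2530.3 CPM and 5003 to 17952 CPM. But 2 of the 11 passed the filter on low counts through the knockouts alone, so that count is partly set by the filter. The part of layer composition in the changes of the 10 genes was not tested.

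By position, 7 of the 10 genes lie in the desmosomal cadherin cluster on chromosome 18, where 3 desmocollin genes on the minus strand and 6 desmoglein genes on the plus strand span 19960930 to 20604521 (644 kb) in GRCm38, 7.38 Mb from Lama3. Along the cluster the log2 fold changes were 0.23 for Dsc3, -1.33 for Dsc2, 2.05 for Dsc1, 0.54 for Dsg1c, 0.45 for Dsg1a, 0.94 for Dsg1b, -3.32 for Dsg4, 0.85 for Dsg3 and -0.60 for Dsg2. Neighbours in the cluster thus differed in direction: Dsc2, which fell, lies beside Dsc1, which rose.

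Genes whose log2 CPM followed a member most closely over the 6 libraries were listed as a description; all 6 points share the difference between the groups. For Dsp they were Usp8, Nfe2l1 and Atg2b (Pearson's r of 0.9992, 0.9991 and 0.9991), and for Pkp1 they were Gars, Slc41a1 and Atg2b (0.9990, 0.9985 and 0.9982). For Dsc2 they were Impa2, Sectm1b and Parp2 (0.991, 0.986 and 0.984). Impa2 fell by 0.74 on the log2 scale (SE 0.16), and Parp2 did not pass (edgeR's adjusted p = 0.0750). In Impa2 as in Dsc2 knockout 2 was the highest of the knockouts. Since Impa2 was picked by its likeness to Dsc2 over these libraries, that shared order follows largely from the choice.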

How the data were processed

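Total RNA of keratinocytes from 6 mice was sequenced as paired reads of 100 bases. The authors deposited whole-number counts per Ensembl gene, 1 column per library. Tools named in the submitters' processing notes were featureCounts 1.4.6, TopHat 1.3.3 and Cuffdiff 1.3.0, and the build GRCm38; order, settings, annotation release and strand are not given in the sources used here. Symbols, positions and exon lengths came from GENCODE M21 (GRCm38), which named 44585 of 45513 identifiers (98.0%); the others stayed in library sizes. The counting noise of a value depends on its count at the depth of each library. The SDs and SEs also hold the differences between libraries of a group.

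The counts were fitted with edgeR 4.0.16 in R 4.3.3 (TMM, filterByExpr, robust quasi-likelihood, group only) over 15513 genes, and tested on simulated data. The SE beside edgeR's values is the size of the log2 fold change divided by the square root of the quasi-likelihood F statistic. Levels are CPM, mean ± SD over 3 libraries; CPM per kb divides by the union of annotated exons. The members and gene lists were chosen with earlier results of these data known. Named genes were the 10 members, Lama3, the other desmosome parts, the 3 called genes with the smallest p of other lists, and the 3 genes most like Dsp, Pkp1 and Dsc2 (mean of at least 5 CPM). Cdh1, Ctnnb1, Klk7, Klk8, Klk14, Krt5, Krt14, Krt81, Gm16090, Gm10129, Xist and Ddx3y were named outside this rule. The 14 alternatives were scaling by DESeq2 size factors or upper quartiles, no filter, at least 1 CPM in 3 libraries as the filter, limma-voom (limma 3.58.1), DESeq2 1.42.0, the replicate number as a block, inferred sex as a covariate, and each library left out; longest transcript lengths were added after seeing the data. Ratios and shares were tested with scipy 1.17.1. Deviations of same-numbered libraries from their group means correlated at -0.11, -0.10 and 0.42. With 3 libraries per group centred on their mean, these values cannot show whether the replicate numbers paired the libraries.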

Additional observations from a re-analysis of the deposited data

How the results depend on the processing

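Over 14 alternative fits the number of members that rose was 4 to 7: 7 with DESeq2, 4 without control 1, control 3 or knockout 1 (Dsg3 and Pkp1 lost), 4 to 6 over all libraries left out, and 6 otherwise. The number that fell was 2 with the replicate block and with sex as a covariate, where Dsg2 joined Dsc2 (adjusted p = 0.0410 with the block in edgeR), and 1 otherwise. The list of other parts had 0 genes that fell with the 1 CPM filter, which Dsg4 did not pass, with the replicate block, and with sex as a covariate (Dsg4 at adjusted p = 0.0599 and 0.0652 in edgeR), and 0 to 1 with libraries left out; 6 of its genes rose in each fit but DESeq2, where Perp made 7. The number of turnover and control genes that rose was 7 to 11, with 7 under upper-quartile scaling and without control 1, control 3 or knockout 1. The log2 fold change of the summed Dsg1 copies was 0.54 with DESeq2, which called it. With Dsg1b in place of the copies, the log2 ratio to Dsg3 turned to 0.090 and that of desmogleins to desmocollins to 0.11; the cause was not tested. With libraries left out, the difference of Pkp1 to Pkp3 ran from -0.071 to 0.060 and that of desmogleins to desmocollins from -0.16 to 0.027. The block left 2422 higher and 2701 lower genes, against 2693 and 2919, and changed the call of no member but Dsg2; the paired ratios reached at best a sign-flip p of 0.25, the smallest that 3 pairs allow. The direction of each of the 10 members was the same in all 14 fits, and the differences in the shares of Dsc1, Dsc2 and the summed Dsg1 copies kept theirs with longest transcript lengths, added after seeing the data and not run for the other shares. Among the 10 genes and the other desmosome parts, Dsg4 and Pkp2 held the fewest counts, at most 48 and 64 in a library.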
